A study of Mus musculus with 4 samples.

Results

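The transcripts of 10 scavenger and endocytic receptors of macrophages were examined: *Msr1*, *Marco*, *Mrc1*, *Cd163*, *Cd36*, *Stab1*, *Scarb1*, *Cd68*, *Mertk* and *Axl*. They were chosen by gene symbol, matched through the Ensembl identifiers of the count table, and are 10 of the 54532 genes it lists. All 10 had enough counts to be tested. The RNA came from tumors of NB9464, a mouse neuroblastoma cell line with amplified *MYCN*, injected under the skin of C57BL/6 mice aged 4 to 6 weeks. Tumors were taken at day 40 without any treatment, and macrophages were pulled from them with magnetic beads against CD11b and F4/80. The groups are mice with floxed *Syk* and a lysozyme M (LysM) Cre, called Syk MC-KO, and their wild type controls, called Syk MC-WT. LysM Cre is active in neutrophils and monocytes as well as in macrophages, and the sources used here do not state whether the controls carry floxed *Syk* or Cre alone. M7 and M8 are the libraries labelled Syk MC-WT, and M9 and M10 those labelled Syk MC-KO. The labels name bone marrow-derived macrophages for the RNA step and the series title names an adoptive transfer, so the source of the cells is given only as labelled. Nothing states that the libraries of one genotype came from separate animals, so the p-values measure the spread between these libraries, which may be technical.

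Scavenger receptors are surface proteins that bind modified lipoproteins, bacteria, debris and dying cells and carry them into the cell for breakdown. Macrophages use several unrelated families for this, including the collagen-like class A receptors, the CD36-like class B receptors, C-type lectins such as the mannose receptor, cysteine-rich receptors such as CD163 and receptor kinases that recognise phosphatidylserine through bridging proteins. In tumors, the mannose receptor and CD163 are widely used as markers of macrophages polarised away from inflammation.

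Reads were aligned to mm10 by the authors, and the deposited values are whole-number counts per gene. Total counts were between 20755886 and 23518045 per library. Levels are given as CPM, counts scaled to the TMM-normalized library total, with the SD of 2 libraries. A count of 3, the smallest taken as detectable, equals 0.109 to 0.163 CPM and covers counting error only. *Syk* itself was at 27.9 and 23.2 CPM in M7 and M8 and at 196 and 160 CPM in M9 and M10, a rise where the label names a deletion (log2 fold change 2.80 ± 0.19 (SE), edgeR adjusted p = 0.000674). Scaled to the macrophage markers or to pan-leukocyte genes it was at -0.37 (adjusted p = 0.530) and -0.56 (0.0664), not called. *Lyz2*, whose locus holds the LysM Cre insertion, fell, at 296 and 208 CPM in M7 and M8 and at 8.64 and 20.2 CPM in M9 and M10, and its near-identical neighbour *Lyz1* was at 0.984, 0.936, 339.6 and 235 CPM. Whether reads shared by this pair were divided correctly was not tested. *Syk* under TMM scaling thus ran against the labels, while *Lyz2*, the Cre locus, was low in the libraries labelled as carrying the deletion. Scaled to the macrophage markers, *Lyz2* was lower as well (log2 fold change -7.12, edgeR adjusted p = 1.99e-16). Under that scaling 89.1% of all genes were lower, with a median of -3.15, and *Lyz1* was at 5.01 (edgeR adjusted p = 2.49e-11). The counts are per gene, so reads from the deleted part of *Syk* alone were not examined. Every direction here is between libraries as labelled, and an exchange of the labels, which would reverse each of them, was not tested further. The 10 macrophage markers *Adgre1*, *Csf1r*, *Itgam*, *Fcgr1*, *Cd14*, *Tyrobp*, *Aif1*, *C1qa*, *C1qb* and *C1qc* were detected in every library. All 10 rose (median log2 fold change 3.21), where 22.7% of all genes tested rose. The summed level of these markers was 1007 and 693 CPM in M7 and M8 and 8739 and 5452 CPM in M9 and M10. Fibroblast markers summed to between 14247 and 16066 CPM in M7 and M8 and to between 4666 and 5481 CPM in M9 and M10. Of these 8 genes 5 fell, where 16.7% of all genes tested fell. In such bulk RNA, fewer cells of a type and less RNA per cell cannot be told apart. Mitochondrial genes took 2.20% (95% Wilson interval 2.19 to 2.20%) of the counts in M7, 2.34% (2.33 to 2.34%) in M8, 6.00% (5.99 to 6.01%) in M9 and 15.9% (15.8 to 15.9%) in M10.

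Against this background, 8 of the 10 receptors rose in M9 and M10 and none of the 10 fell, where 22.7% of all 16451 genes tested rose and 16.7% fell. Their median log2 fold change was 2.40, beside 0.016 for all genes tested. *Marco*, *Msr1*, *Cd36*, *Cd68*, *Mrc1* and *Stab1* rose by between 4.19-fold (*Stab1*) and 23.4-fold (*Marco*). *Cd163* rose 2.17-fold and *Mertk* 1.48-fold. *Scarb1* and *Axl* did not pass the test. The count of 0 that fell was the same in edgeR at an unadjusted p under 0.05 and in DESeq2. For 9 receptors, both M9 and M10 lay above both M7 and M8, an arrangement that 38.0% of all genes tested also had, while 37.2% had the opposite one. *Axl* was the exception, with M9 below and M10 above both M7 and M8. The size of the rise depends on how libraries are scaled to each other, and scaling to the macrophage markers themselves, described further on, moved the median of all genes to -3.15, so that 89.1% of them were called lower, and turned the log2 fold change negative for 8 of the 10. Macrophage markers moved with these transcripts, and their part in the result was not tested beyond that scaling.

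**Figure D1:**
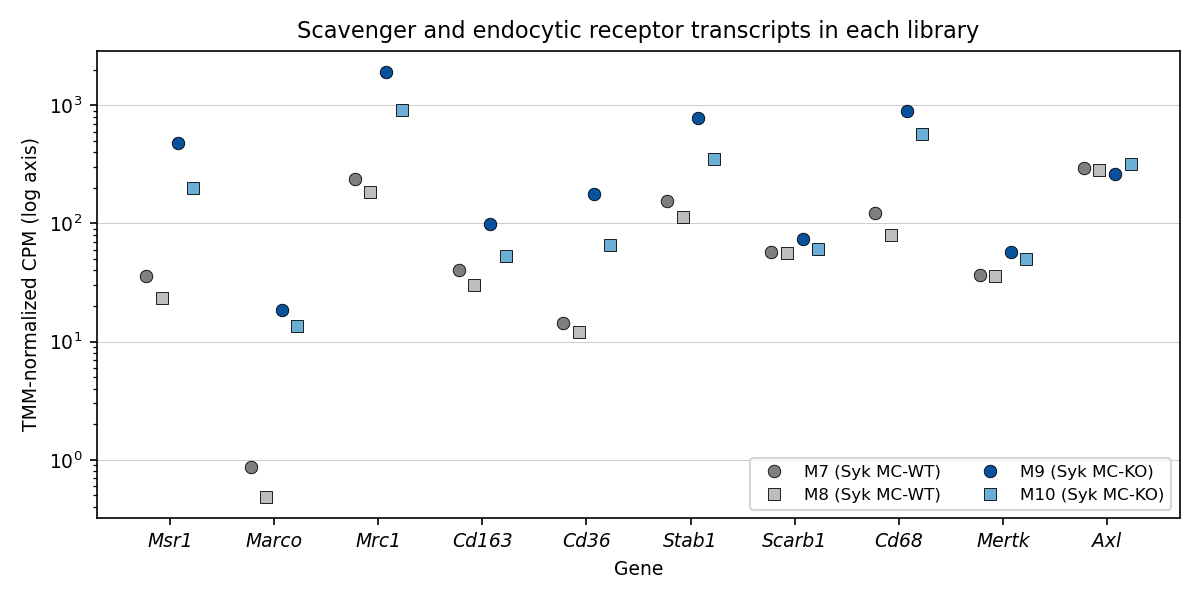
TMM-normalized CPM (log axis) of each receptor transcript in each library. Circles and squares are single libraries, M7 and M8 (labelled Syk MC-WT) in grey and M9 and M10 (labelled Syk MC-KO) in blue. M9 and M10 lie above M7 and M8 for every receptor but Axl, and the gap is widest for Marco (0.488 and 0.875 CPM against 13.7 and 18.7). Of all genes tested, 38.0% had this arrangement and 37.2% the opposite one. With libraries scaled to macrophage markers instead, 8 of the 10 differences are negative, under a scaling that puts 89.1% of all genes tested lower.

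The promoter stretches of 5 of these genes are shown because the genes span the range of the result under TMM scaling. Under that scaling *Marco*, *Cd68* and *Mrc1* rose strongly, and the paired kinases *Mertk* and *Axl* differed little. Each stretch is the 250 bases before the RefSeq start on GRCm38.p6, written 5′ to 3′ on the strand of the gene. They lie at chr1:120505025-120505274, minus strand (*Marco*), chr11:69666171-69666420, minus strand (*Cd68*), chr2:14229164-14229413, plus strand (*Mrc1*), chr2:128698665-128698914, plus strand (*Mertk*), and chr7:25788734-25788983, minus strand (*Axl*). Capitals mark matches, on either strand, to the core letters bound by the myeloid factor PU.1 (GAGGAA), to an AP-1 site (TGANTCA), to a MAF half-site (TGCTGAC) and to a GC box (GGGCGG).
Marco: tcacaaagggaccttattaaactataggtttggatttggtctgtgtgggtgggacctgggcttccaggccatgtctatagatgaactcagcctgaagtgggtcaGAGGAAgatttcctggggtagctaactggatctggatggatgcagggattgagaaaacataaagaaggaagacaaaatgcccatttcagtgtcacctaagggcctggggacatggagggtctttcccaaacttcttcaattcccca
Cd68: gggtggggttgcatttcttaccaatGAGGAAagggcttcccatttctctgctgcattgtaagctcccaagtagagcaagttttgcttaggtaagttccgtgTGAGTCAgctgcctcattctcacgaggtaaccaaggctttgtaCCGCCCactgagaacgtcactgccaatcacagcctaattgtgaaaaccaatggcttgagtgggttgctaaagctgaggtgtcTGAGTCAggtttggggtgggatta
Mrc1: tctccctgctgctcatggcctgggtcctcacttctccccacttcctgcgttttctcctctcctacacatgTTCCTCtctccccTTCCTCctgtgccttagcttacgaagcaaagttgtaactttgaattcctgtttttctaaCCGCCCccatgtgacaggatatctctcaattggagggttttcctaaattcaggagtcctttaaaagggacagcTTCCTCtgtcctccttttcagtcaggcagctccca
Mertk: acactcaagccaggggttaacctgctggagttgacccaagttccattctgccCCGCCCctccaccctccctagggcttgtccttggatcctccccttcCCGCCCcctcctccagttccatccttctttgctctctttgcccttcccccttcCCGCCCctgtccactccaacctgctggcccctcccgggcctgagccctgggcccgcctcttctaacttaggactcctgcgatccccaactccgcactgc
Axl: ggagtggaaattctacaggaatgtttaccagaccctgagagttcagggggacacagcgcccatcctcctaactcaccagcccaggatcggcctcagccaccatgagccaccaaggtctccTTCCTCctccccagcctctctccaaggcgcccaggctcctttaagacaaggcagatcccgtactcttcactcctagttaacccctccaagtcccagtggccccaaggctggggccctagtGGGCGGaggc
*Marco* held 1 match, the PU.1 core from -146 to -141 relative to the start. *Cd68* held a PU.1 core from -225 to -220, AP-1 letters from -149 to -143 and from -24 to -18, and a GC box from -106 to -101. *Mrc1* held the PU.1 core at 3 places, from -180 to -175, from -167 to -162 and from -35 to -30, with a GC box from -108 to -103, and its RefSeq start lies 22 bases inside the gene as GENCODE draws it. *Mertk* held only GC boxes, at 3 places, and *Axl* a PU.1 core from -130 to -125 and a GC box from -10 to -5. Of the windows not shown, *Stab1* held 1 PU.1 core, *Cd36*, which also rose strongly, held no PU.1 core and 2 GC boxes in a window whose RefSeq start lies 52905 bases inside the gene as GENCODE draws it, and *Cd163* held none of these motifs. Of 32851 windows of this length, 23.3% held the PU.1 core, 6.75% the AP-1 letters, 3.81% the MAF half-site and 32.7% the GC box. The window of *Mertk* was 63.6% G and C, those of *Marco*, *Cd68* and *Mrc1* 47.6%, 49.2% and 49.6%, those of *Cd36*, *Cd163* and *Stab1* 43.2%, 36.8% and 57.2%, and the median window 52.4%. A window was found for 8 of the 10 genes, all but *Msr1* and *Scarb1*. A match says only that these letters are present.

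*Marco* and *Msr1* both rose under TMM scaling. Of their class A relatives, *Scara3* fell (log2 fold change -1.20, edgeR adjusted p = 0.00983), as did *Colec12* (-0.82, adjusted p = 0.0107), and *Scara5* was at 3.01 ± 0.174 and 2.10 ± 1.66 CPM (adjusted p = 0.549). *Marco* (ENSMUSG00000026390, chr1:120474538-120505024 on GRCm38, minus strand) encodes a collagen-like receptor that binds bacteria and inhaled particles and is found on few macrophage types. It was at 0.875 and 0.488 CPM in M7 and M8 and at 18.7 and 13.7 CPM in M9 and M10, from 24, 12, 385 and 251 counts. The gene was low in M7 and M8 and well above them in M9 and M10. The means were 0.682 ± 0.273 and 16.2 ± 3.55 CPM (SD, n = 2 each), a log2 fold change of 4.55 ± 0.41 (SE, 95% interval 3.56 to 5.54, edgeR adjusted p = 0.00103). *Msr1* (ENSMUSG00000025044, chr8:39581685-39642673, minus strand), the macrophage scavenger receptor SR-A that takes up modified low-density lipoprotein, was at 36.1 and 23.6 CPM in M7 and M8 and at 484 and 199 CPM in M9 and M10. M9 was 2.43 times M10, so the spread within the libraries labelled Syk MC-KO was large, yet the lower of them was far above M7 and M8. *Msr1* rose from 29.8 ± 8.83 to 342 ± 202 CPM, with a log2 fold change of 3.52 ± 0.46 (SE, 2.40 to 4.64, edgeR adjusted p = 0.00291), which was 2.65 without M9 and 4.03 without M10. The count ratio of *Msr1* to *Marco* was 40.4 in M7 and 46.4 in M8 against 25.9 in M9 and 14.5 in M10, so *Marco* gained on *Msr1*.

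*Mrc1*, *Cd163* and *Stab1* encode receptors often read as marks of resident or alternatively activated macrophages. *Mrc1* (ENSMUSG00000026712, chr2:14229392-14332057, plus strand), the mannose receptor CD206, was at 238 and 184 CPM in M7 and M8 and at 1914 and 908 CPM in M9 and M10. Both libraries labelled Syk MC-KO lay well above the other two. The rise from 211 ± 38.0 to 1411 ± 711 CPM was 6.69-fold, a log2 fold change of 2.74 ± 0.39 (SE, 1.80 to 3.69, edgeR adjusted p = 0.00375), which was 2.02 without M9. *Mrc2*, which encodes the collagen-binding relative Endo180 and is typical of fibroblasts, went the other way, from 786 ± 156 to 370 ± 131 CPM (log2 fold change -1.09, edgeR adjusted p = 0.0298), a call lost without M8 (-0.88, adjusted p = 0.143). The count ratio of *Mrc1* to *Mrc2* was thus 0.352 and 0.206 in M7 and M8 against 6.92 and 1.96 in M9 and M10. Scaling does not touch this within-library comparison, but the mix of cells can. Macrophage markers had a median log2 fold change of 3.21 and fibroblast markers of -1.49, and their part in this ratio was not tested.

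*Stab1* (ENSMUSG00000042286, chr14:31139013-31168641, minus strand), the multifunctional receptor stabilin-1 of macrophages and sinusoidal endothelium, was at 155 and 114 CPM in M7 and M8 and at 777 and 352 CPM in M9 and M10. M9 was 2.21 times M10, and both exceeded M7 and M8. It rose from 135 ± 29.2 to 565 ± 301 CPM, a log2 fold change of 2.07 ± 0.39 (SE, 1.12 to 3.01, edgeR adjusted p = 0.00924), which was 1.30 without M9. Summed endothelial markers were lower in M9 and M10, at 149 and 132 CPM against 208 and 202 in M7 and M8. Of these 8 genes 4 fell, where 16.7% of all genes tested fell. *Stab1* shares 112 exonic bases with *Nt5dc2* on the other strand, which had between 1168 and 1639 counts, and the sources do not state whether counting used strand. The paralogue *Stab2* was scarce, with 12, 35, 24 and 113 counts in M7 to M10, and did not pass the test (log2 fold change 1.97, edgeR adjusted p = 0.137), although it did without M9 (adjusted p = 0.000254) and with all genes of at least 1 count (0.00801).

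*Cd163* (ENSMUSG00000008845, chr6:124304656-124330527, plus strand), the receptor that clears haptoglobin-bound hemoglobin, moved much less than *Mrc1*. It was at 40.4 and 30.1 CPM in M7 and M8 and at 99.3 and 53.5 CPM in M9 and M10. M10 was nearer to M7 than to M9, although the genotypes did not overlap. The rise from 35.3 ± 7.30 to 76.4 ± 32.4 CPM was a log2 fold change of 1.12 ± 0.31 (SE, 0.36 to 1.87, edgeR adjusted p = 0.0325). That call was lost without M8 (log2 fold change 0.91) and with library size only (0.60, edgeR adjusted p = 0.215). The log2 fold change of *Cd163* was 0.51 without M9 and 1.51 without M10. The count ratio of *Cd163* to *Mrc1* was 0.170 and 0.164 in M7 and M8 and 0.0519 and 0.0589 in M9 and M10, so the pair of polarisation markers separated by 1.59 on the log2 scale. Erythroid markers, among them hemoglobin genes, were at 1644 and 4610 summed CPM in M7 and M8 and at 139 and 204 in M9 and M10, and their part in the result was not tested.

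The class B receptors *Cd36* and *Scarb1* parted. Their relative *Scarb2* rose from 49.8 ± 6.44 to 107 ± 24.6 CPM (log2 fold change 1.10, edgeR adjusted p = 0.0093). With macrophage marker scaling *Scarb2* was at -2.10 (edgeR adjusted p = 0.000669), beside a median of -3.15 for all genes. *Cd36* (ENSMUSG00000002944, chr5:17781690-17888801, minus strand), which binds oxidised lipoproteins and imports long-chain fatty acids, was at 14.3 and 12.0 CPM in M7 and M8 and at 177 and 65.9 CPM in M9 and M10. M9 was 2.68 times M10, the widest such gap among the 10 receptors. The rise from 13.2 ± 1.59 to 121 ± 78.3 CPM was 9.21-fold, a log2 fold change of 3.20 ± 0.46 (SE, 2.09 to 4.32, edgeR adjusted p = 0.00385), which was 2.24 without M9. *Cd36* is also made by adipocytes, platelets and capillary endothelium. Adipocyte markers summed to 4.08 and 2.20 CPM in M7 and M8 and to 0.534 and 0.381 in M9 and M10, with *Adipoq* at 0 counts in M9 and M10. Of the platelet markers, *Pf4* and *Ppbp*, which macrophages can also express, rose, *Itga2b* fell, and *Gp9* had at most 10 counts in any library.

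*Scarb1* (ENSMUSG00000037936, chr5:125277087-125341094, minus strand) encodes SR-B1, the receptor for high-density lipoprotein, and is expressed well beyond macrophages. It was at 57.5 and 56.1 CPM in M7 and M8 and at 74.2 and 60.8 CPM in M9 and M10. The genotypes did not overlap, but M10 was only slightly above M7. The log2 fold change of 0.25 ± 0.16 (SE, -0.15 to 0.65) did not pass the test (edgeR adjusted p = 0.267), although it did without M10 (0.40, adjusted p = 0.0480). The count ratio of *Cd36* to *Scarb1* was 0.249 and 0.215 in M7 and M8 and 2.38 and 1.08 in M9 and M10.

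*Cd68* (ENSMUSG00000018774, chr11:69664213-69666153, minus strand), a heavily glycosylated protein of late endosomes and lysosomes and a routine stain for macrophages, was at 123 and 79.4 CPM in M7 and M8 and at 901 and 575 CPM in M9 and M10. Both libraries labelled Syk MC-KO lay far above both others. It rose from 101 ± 30.5 to 738 ± 230 CPM, a 7.31-fold change (log2 2.87 ± 0.32 (SE), 2.09 to 3.65, edgeR adjusted p = 0.00186) that stayed between 2.42 and 3.22 on the log2 scale when any library was left out. M9 was 1.57 times M10, near the 1.60 of the summed macrophage markers. Of its relatives in the LAMP family of lysosomal membrane proteins, *Lamp1* rose from 582 ± 75.5 to 1137 ± 299.7 CPM (log2 fold change 0.97, edgeR adjusted p = 0.0273), and *Lamp2* was at 449 ± 28.3 and 448 ± 89.5 CPM (log2 fold change -0.0029, adjusted p = 0.993), while *Lamp3* and *Lamp5* were too low to test. The *Lamp1* call was lost without M7 (log2 fold change 1.10), without M8 (0.83) and with library size only (0.44, edgeR adjusted p = 0.267).

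*Mertk* and *Axl* encode receptor kinases that bind dying cells through bridging proteins, Gas6 for both and protein S for *Mertk*. *Mertk* (ENSMUSG00000014361, chr2:128698956-128802894, plus strand), the main kinase of this kind on resting macrophages, was at 36.6 and 35.7 CPM in M7 and M8 and at 57.2 and 49.97 CPM in M9 and M10. The libraries of one genotype were close together and the genotypes did not overlap. The rise from 36.1 ± 0.648 to 53.6 ± 5.14 CPM was a log2 fold change of 0.57 ± 0.16 (SE, 0.19 to 0.95, edgeR adjusted p = 0.0312). That call was lost without M7, M8 or M9, where the log2 fold change was 0.59, 0.54 and 0.38. With library size only the log2 fold change was 0.039 (edgeR adjusted p = 0.883). *Axl* (ENSMUSG00000002602, chr7:25757273-25788705, minus strand), which is prominent on activated macrophages, dendritic cells and many stromal and tumor cells, was at 296 and 282 CPM in M7 and M8 and at 263 and 318 CPM in M9 and M10. The genotypes overlapped, with M9 lowest and M10 highest. Its log2 fold change of 0.0076 ± 0.18 (SE, 95% interval -0.42 to 0.44, edgeR adjusted p = 0.978) did not pass the test. The third kinase, *Tyro3*, fell from 54.9 ± 7.17 to 27.4 ± 2.74 CPM (log2 fold change -1.002, edgeR adjusted p = 0.00745), a call lost without M8 (log2 -0.87). The count ratio of *Mertk* to *Tyro3* was therefore 0.735 and 0.596 in M7 and M8 and 1.95 and 1.96 in M9 and M10, and that of *Mertk* to *Axl* moved from 0.124 and 0.127 to 0.218 and 0.157. Of the bridging proteins, *Gas6* rose from 56.5 ± 10.8 to 229 ± 116 CPM (log2 fold change 2.02, edgeR adjusted p = 0.00771, and 1.30 without M9), whereas *Pros1*, which encodes protein S, was at 56.3 ± 4.75 and 62.8 ± 4.86 CPM (adjusted p = 0.462).

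Compared per length, as CPM per kilobase of exon, *Cd68* was the most abundant of the 10 transcripts in every library, above 97.0% of all genes tested in M8 and 99.5% in M9. In M7 and M8 it was followed by *Axl* (56.0 to 58.8), *Mrc1* (28.9 to 37.3), *Stab1* (11.1 to 15.1) and *Mertk* (8.23 to 8.44), whose ranges did not overlap. *Cd163* (5.51 to 7.40) overlapped with *Scarb1* (6.60 to 6.76) and *Msr1* (3.72 to 5.69), and *Msr1* with *Cd36* (3.36 to 3.98). *Marco* was last (0.254 to 0.455), above only 9.66% of genes in M8 and 16.6% in M7. In M9 and M10, *Mrc1* was second (143 to 300.4). *Msr1* (31.4 to 76.3), *Stab1* (34.2 to 75.6) and *Axl* (52.2 to 63.2) overlapped with one another, and *Cd36* (18.4 to 49.2) with *Msr1* and *Stab1*. *Mertk* (11.5 to 13.2) lay within the range of *Cd163* (9.79 to 18.2), and *Scarb1* (7.15 to 8.73) within that of *Marco* (7.10 to 9.71). *Axl* thus went from second place to a group of 3 behind *Mrc1*, and *Marco* from far below all others to the level of *Scarb1*.

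Because the macrophage markers differed so much between genotypes, each receptor was also set against them inside its own library, as the log2 ratio of its counts to the geometric mean of the 10 markers. By that measure the receptors fell into groups. *Msr1* was at -0.85 in both M7 and M8, at -0.32 in M9 and at -0.91 in M10, and *Cd36* at -2.18, -1.82, -1.78 and -2.50, so both overlapped between genotypes. *Cd68* was at 0.92 and 0.90 in M7 and M8 and at 0.57 and 0.62 in M9 and M10, and *Mrc1* at 1.87 and 2.12 against 1.66 and 1.28, small differences with no overlap. *Marco* was the only receptor with both ratios higher in M9 and M10, at -5.02 and -4.77 against -6.18 and -6.38 in M7 and M8, an arrangement that 1.63% of all genes tested had. *Stab1* went from 1.26 and 1.43 to 0.36 and -0.09, and *Cd163* from -0.68 and -0.49 to -2.61 and -2.81. *Scarb1*, *Mertk* and *Axl* had the lowest ratios relative to M7 and M8, with mean differences of -2.94, -2.62 and -3.18. In all, 7 receptors were below in both M9 and M10, as were 94.0% of all genes tested.

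**Figure D2:**
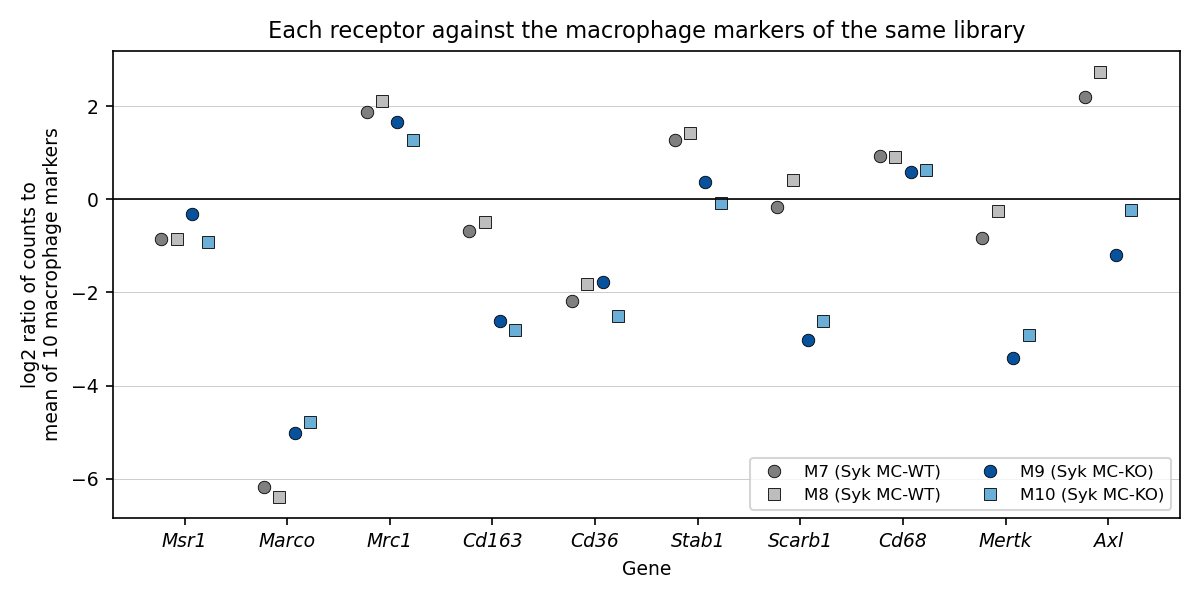
Log2 ratio of each receptor's counts to the geometric mean of 10 macrophage markers in the same library. Points are single libraries, M7 and M8 in grey and M9 and M10 in blue. Marco is the only receptor with both blue points above both grey points, an arrangement that 1.63% of all genes tested had. Msr1 and Cd36 overlap. Scarb1, Mertk and Axl show the widest drop of the receptors, with mean differences of -2.94, -2.62 and -3.18. Of all genes tested, 94.0% lay below in both M9 and M10. With libraries scaled to these markers, the median log2 fold change of all genes was -3.15.

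The edgeR test with libraries scaled to these markers uses the same counts and markers, and adds an error to each difference. Under that scaling 4 receptors were lower (*Cd163*, *Scarb1*, *Mertk* and *Axl*) and none of the 10 was higher, where 89.1% of all genes tested were lower and 0.413% higher, and the log2 fold change of all genes had a median of -3.15. With macrophage marker scaling, *Marco* had a log2 fold change of 1.43 (edgeR adjusted p = 0.115) and *Msr1* 0.26 (0.670). *Cd36* stood at -0.11 (0.864), *Cd68* at -0.31 (0.617), *Mrc1* at -0.52 (0.411) and *Stab1* at -1.19 (0.0552). *Cd163* was lower by a log2 fold change of -2.12 (edgeR adjusted p = 0.000502), *Mertk* by -2.62 (2.74e-05), *Scarb1* by -2.95 (5.23e-06) and *Axl* by -3.13 (4.54e-06). The count of 0 that were higher did not change at an unadjusted p under 0.05. Scaled to 6 pan-leukocyte genes instead, 5 were lower (*Stab1* at -1.35, adjusted p = 0.00267, besides these 4) and none of the 10 was higher, where 91.1% of all genes were lower and 0.456% higher. A scaling shifts all genes by nearly the same amount, so distances from the all-gene median are much the same by construction under the 5 scalings used (TMM, DESeq2 size factors, library size only, macrophage markers and pan-leukocyte genes). On that measure *Marco* was 4.53 to 4.57 above the median, *Msr1* 3.41 to 3.53, *Cd36* 3.04 to 3.22, *Cd68* 2.83 to 2.87, *Mrc1* 2.63 to 2.75, *Stab1* 1.95 to 2.08, *Cd163* 1.03 to 1.12, *Mertk* 0.52 to 0.56 and *Scarb1* 0.19 to 0.24, and *Axl* was between -0.016 and 0.021.

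**Figure D3:**
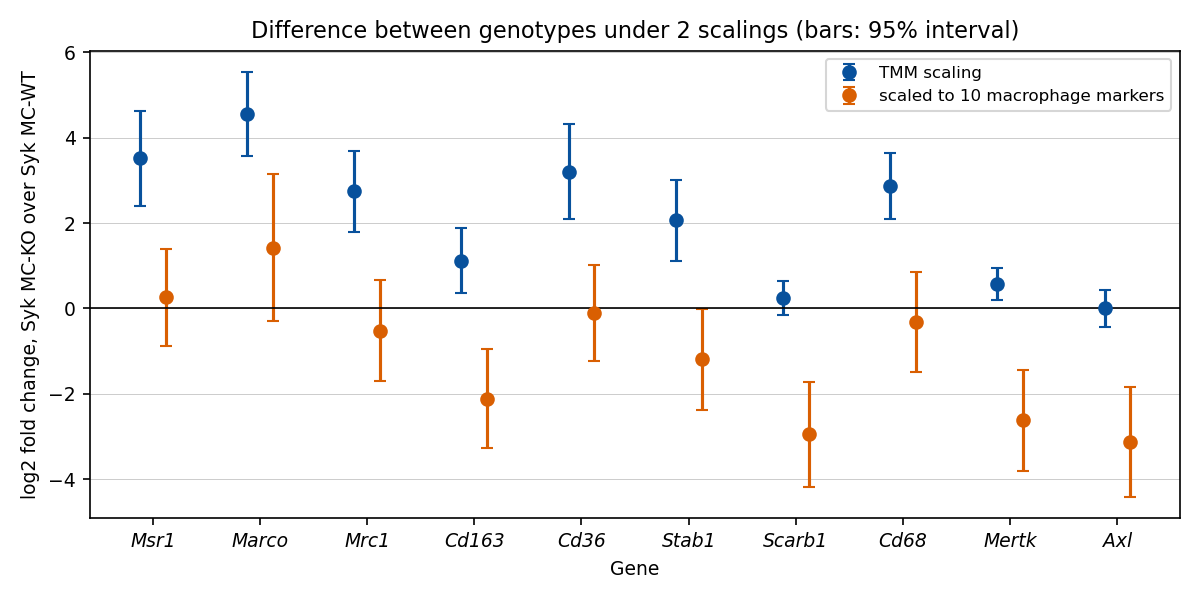
Log2 fold change of each receptor (libraries labelled Syk MC-KO over Syk MC-WT) with TMM scaling in blue and with libraries scaled to 10 macrophage markers in orange. Bars are 95% intervals of the edgeR fit. Under marker scaling the estimates for Msr1, Cd36, Cd68 and Mrc1 lie between -0.52 and 0.26, Marco is at 1.43, and Cd163, Scarb1, Mertk and Axl are between -3.13 and -2.12.

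*Cd68* can also stand as the reference for the other 9 in each library. The count ratio of *Mrc1* to *Cd68* was 1.94, 2.32, 2.12 and 1.58 in M7 to M10 and that of *Cd36* was 0.117, 0.152, 0.196 and 0.115, both overlapping between genotypes. *Marco* rose against *Cd68* from 0.00729 and 0.00641 to 0.0208 and 0.0238, and *Msr1* went from 0.295 and 0.297 to 0.537 and 0.346. *Stab1* went from 1.27 and 1.44 to 0.863 and 0.612, and *Cd163* from 0.330 and 0.379 to 0.110 and 0.0930. The drop against *Cd68* was wider for *Scarb1* (0.469 and 0.706 to 0.0824 and 0.106) and *Mertk* (0.299 and 0.450 to 0.0636 and 0.0869). It was also wider for *Axl* (2.41 and 3.55 to 0.292 and 0.553). On the log2 scale these mean differences were -2.62, -2.30 and -2.87. *Cd68* itself lay 2.83 to 2.87 above the median log2 fold change of all genes, so a gene at that median drops against it by about as much.

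Other genes of scavenging and endocytosis moved in both directions. Of 15 further scavenger receptors 13 were tested, and 4 rose and 4 fell, where 22.7% of all genes rose and 16.7% fell. Their median log2 fold change was -0.47. *Cd5l*, a secreted scavenger protein of tissue macrophages, rose from 0.262 ± 0.197 to 6.70 ± 2.47 CPM (log2 4.63 ± 0.68 (SE), edgeR adjusted p = 0.0039). It had 11 and 3 counts in M7 and M8, and its log2 fold change was 5.71 without M7 and 4.04 without M8. *Olr1*, the lectin-like receptor for oxidised lipoprotein, also rose (log2 4.15, edgeR adjusted p = 0.00321). *Scarf2*, the most abundant of this list per length, fell from 372 ± 90.2 to 118 ± 46.9 CPM (log2 -1.65 ± 0.32 (SE), edgeR adjusted p = 0.00985). Of 10 other endocytic receptors 9 were tested, and 1 rose and 4 fell, with a median of -0.73. The one that rose was *Sorl1*, a sorting receptor, from 3.46 ± 1.08 to 44.7 ± 5.36 CPM (log2 3.69 ± 0.28 (SE), edgeR adjusted p = 0.000729), and *Pla2r1*, of the mannose receptor family, fell from 2.32 ± 0.228 to 0.445 ± 0.218 CPM (log2 -2.38 ± 0.64 (SE), adjusted p = 0.0271). The *Pla2r1* call was lost without M7 (log2 -2.27) or M8 (-2.48). Under macrophage marker scaling 9 of 13 genes of the first list and 8 of 9 of the second were lower and none was higher, beside 89.1% and 0.413% of all genes.

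Genes for the uptake of dying cells split evenly, with 4 of 13 tested higher and 4 lower (median log2 fold change -0.0051), where 22.7% of all genes were higher and 16.7% lower. *Elmo1*, which passes the engulfment signal to Rac, rose from 10.1 ± 0.817 to 47.4 ± 1.95 CPM (log2 2.22 ± 0.17 (SE), edgeR adjusted p = 0.000812). *Mfge8*, a secreted bridge between dying cells and integrins, fell from 380 ± 16.7 to 135 ± 9.07 CPM (log2 -1.49 ± 0.17 (SE), edgeR adjusted p = 0.00184). The integrin subunit *Itgb5* fell from 444 ± 1.21 to 272 ± 19.0 CPM (log2 -0.71, edgeR adjusted p = 0.02). That call was lost without M7 or M8, where the log2 fold change of *Itgb5* was -0.71 and -0.72. Of 5 genes that act in receptor shedding, which releases CD163 and Mertk from the surface, 1 rose, 1 fell and 3 were not called. Their median log2 fold change was 0.12, where 22.7% of all genes rose and 16.7% fell. *Adam17*, the protease itself, rose from 41.3 ± 1.61 to 117 ± 31.3 CPM (log2 1.495 ± 0.22 (SE), edgeR adjusted p = 0.00388). Its inhibitor *Timp3* fell from 74.2 ± 9.06 to 15.5 ± 2.72 CPM (log2 -2.26 ± 0.20 (SE), adjusted p = 0.000996), and *Adam10* was at 107 ± 9.77 and 142 ± 32.9 CPM (adjusted p = 0.157, and 0.00397 without M10). Under macrophage marker scaling 12 of the 13 uptake genes were lower and *Adam17* had a log2 fold change of -1.75, beside 89.1% of all genes lower and a median of -3.15.

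Most genes that handle lipid cargo and most transcription factors of macrophages rose. Of 13 lipid cargo genes 12 rose and none fell (median log2 fold change 1.37), where 22.7% of all genes rose, and *Npc1* was the one not called. With library size only, 7 of these 13 were higher (median 0.84), where 10.2% of all genes were. *Lpl*, the lipase that frees fatty acids from lipoproteins, rose from 30.0 ± 7.68 to 395 ± 134 CPM (log2 3.72 ± 0.32 (SE), edgeR adjusted p = 0.000941), and *Apoe*, the most abundant per length, from 708 ± 138 to 2901 ± 1153 CPM (log2 2.03 ± 0.35 (SE), adjusted p = 0.00671). Of 12 transcription factors 10 rose and none fell, with a median of 2.12, beside the same 22.7%. *Spi1*, which encodes PU.1, rose from 23.9 ± 4.48 to 240 ± 72.7 CPM (log2 3.32 ± 0.28 (SE), edgeR adjusted p = 0.000898), and *Cebpb*, the most abundant, from 179 ± 5.52 to 604 ± 0.882 CPM (log2 1.75 ± 0.17 (SE), adjusted p = 0.00136). Both lists had negative medians under macrophage marker scaling, -1.81 and -1.05, where 9 of 13 and 6 of 12 genes were lower and none was higher, beside 89.1% of all genes lower.

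**Figure D4:**
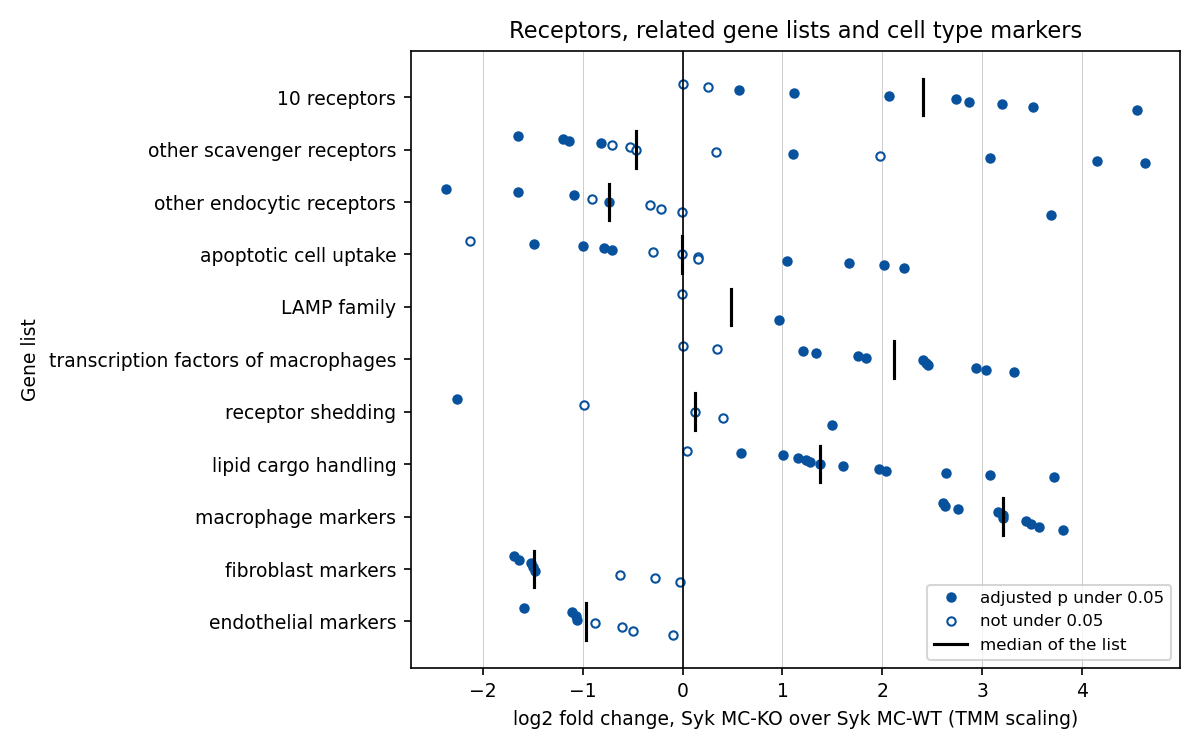
Log2 fold change (TMM scaling) of every tested gene in the 10 receptors, 7 related lists and 3 marker lists. Filled points had an edgeR adjusted p under 0.05, open points did not, and bars mark list medians. The receptors (median 2.40), the transcription factors (2.12), the lipid cargo genes (1.37) and the macrophage markers (3.21) lie to the right, while other scavenger (-0.47) and endocytic receptors (-0.73) and fibroblast markers (-1.49) lie to the left. With macrophage marker scaling the medians are -0.86, -1.05 and -1.81 for the receptors, transcription factors and lipid cargo genes, beside -3.15 for all genes.

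Some markers of other blood cells were also higher in M9 and M10, to be read beside the 22.7% of all genes tested that rose. Neutrophil markers summed to 24.6 and 39.4 CPM in M7 and M8 and to 407 and 205 in M9 and M10, with 5 of 5 tested genes risen and the defining *Ly6g*, *Mpo* and *Elane* too low to test. Dendritic cell markers summed to 12.8 and 10.1 against 35.5 and 34.3 CPM, with 3 of 5 risen. T cell markers summed to 8.97 and 4.80 against 54.3 and 30.6 CPM, with 4 of 5 risen, but *Cd4*, which macrophages can also express, made up 49.8 and 25.9 CPM of this in M9 and M10. B cell markers summed to 1.60 and 1.06 against 8.93 and 8.01 CPM, with 1 of 3 risen, and NK cell markers to 1.93 and 1.59 against 2.91 and 0.763 CPM, with none risen of 1 tested. With macrophage marker scaling no gene of these lists was called higher, beside 0.413% of all genes. The list medians were then -0.25 (neutrophil), 0.23 (dendritic cell), -0.023 (T cell), -1.76 (B cell) and -3.01 (NK cell), beside -3.15 for all genes. The part of these other blood cells in the receptor values was not tested.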

How the data were processed

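PolyA-selected RNA of macrophages, as labelled, was sequenced in 4 libraries, 2 labelled Syk MC-WT (M7, M8) and 2 labelled Syk MC-KO (M9, M10). The authors aligned paired reads of 150 bases to mm10 and deposited read counts for Ensembl genes as whole numbers, without normalization. The submitters' processing notes name STAR 2.6.1d and Salmon 1.4.0, and how Salmon's estimates became whole numbers is not given in the sources used here, and reads shared by similar genes may have been split. The methods of the study describe single reads in triplicate, the labels paired reads and 2 libraries per genotype, and the labels were followed. Symbols, positions and exon lengths came from GENCODE M21 on GRCm38, which matched 54495 of 54532 identifiers, and promoters from RefSeq on GRCm38.p6.

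Analysis used R 4.3.3. Low genes were removed by filterByExpr of edgeR, the TMM factors of M7 to M10 came to 1.22, 1.19, 0.876 and 0.787, and the quasi-likelihood test of edgeR 4.0.16 (glmQLFTest) compared the genotypes with Benjamini-Hochberg adjustment over 16451 genes and a threshold of 0.05. SE and intervals come from that fit. An exact permutation test of 2 libraries against 2 cannot give p below 0.333, so p-values rest on the error model shared across genes. The code was tested on simulated data. To check for duplicated libraries, replicates were compared, and they differed beyond counting noise (chi-square divided by its degrees of freedom 50.6 in Syk MC-WT, 168 in Syk MC-KO), which says nothing of the source of their spread. Wilson intervals and floors cover counting error only, since without molecular identifiers several reads can stem from 1 molecule. Count ratios between genes used 0.5 added to each count and are not per length.

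The 10 receptors and all lists were chosen with earlier results of these data known. The text names every receptor and, from each related list, the gene with the highest level per length and, in each direction, the largest change among genes with an adjusted p under 0.05 and at least 1 CPM on average, besides the paralogues *Mrc2*, *Stab2* and *Tyro3* and the ligands *Gas6* and *Pros1*. *Olr1*, *Npc1*, *Scara3*, *Scara5*, *Colec12*, *Scarb2*, *Lamp2*, *Lamp3*, *Lamp5*, *Lyz1*, *Lyz2* and single markers of other cells were named after their values were seen. Alternatives were DESeq2 size factors, library size only, scaling to 10 macrophage markers or 6 pan-leukocyte genes, keeping every gene with a count, requiring 10 counts in each library, DESeq2 1.42.0 with its Wald test, leaving out 395 mitochondrial and rRNA-like genes, and each library left out.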

Additional observations from a re-analysis of the deposited data

How the results depend on the processing

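The scaling of the libraries decided most. With DESeq2 size factors *Axl* was at -0.036, with all genes of at least 1 count at -0.0088, with at least 10 counts in every library at -0.060, with the DESeq2 Wald test at -0.045 and without mitochondrial and rRNA-like genes at -0.080, each not called. DESeq2 and the last of these called 7 receptors instead of 8, losing *Mertk* (log2 fold change 0.52 and 0.48, DESeq2 Wald adjusted p = 0.0752 and edgeR adjusted p = 0.0538). With library size only, 1677 genes were higher and 5411 lower, the median of all genes was -0.52 and that of the receptors 1.89, 6 receptors were higher (*Cd163* and *Mertk* lost their calls, adjusted p = 0.215 and 0.883), and log2 fold changes were -0.28 for *Scarb1*, -0.53 for *Axl*, -0.12 for *Adam10* and -0.38 for *Pros1*.

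With macrophage marker scaling 0 receptors were higher and 4 lower, 68 genes were higher and 14654 lower, and the receptors' median was -0.86. The log2 fold changes were -0.52 (*Mrc1*), -2.12 (*Cd163*), -0.11 (*Cd36*), -1.19 (*Stab1*), -2.95 (*Scarb1*), -0.31 (*Cd68*), -2.62 (*Mertk*), -3.13 (*Axl*), -0.94 (*Elmo1*), -2.24 (*Lamp1*), -1.43 (*Cebpb*), -2.80 (*Adam10*), -1.75 (*Adam17*), -1.19 (*Apoe*), -1.12 (*Stab2*), -1.23 (*Gas6*), -3.01 (*Pros1*) and -0.37 (*Syk*). With pan-leukocyte scaling, under which the median of all genes was -3.33, 0 receptors were higher and 5 lower, 75 genes were higher and 14995 lower, and the receptors' median was -1.02. The log2 fold changes were -0.68 (*Mrc1*), -2.29 (*Cd163*), -0.24 (*Cd36*), -1.35 (*Stab1*), -3.13 (*Scarb1*), -0.51 (*Cd68*), -2.80 (*Mertk*), -3.33 (*Axl*), -1.13 (*Elmo1*), -2.42 (*Lamp1*), -1.61 (*Cebpb*), -0.063 (*Spi1*), -2.98 (*Adam10*), -1.91 (*Adam17*), -1.37 (*Apoe*), -1.30 (*Stab2*), -1.40 (*Gas6*), -3.20 (*Pros1*) and -0.56 (*Syk*).

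Leaving out each library in turn gave between 6 (without M8) and 9 (without M10) receptors higher and 0 lower, with a median of 1.66 (without M9) to 2.86 (without M10), between 1478 (without M8) and 5010 (without M10) genes higher and between 807 (without M8) and 4745 (without M10) lower, and *Axl* between -0.12 and 0.051. The lone library of a genotype was then assumed to vary like the others. No paired analysis was possible because the labels give no pairing of libraries. Depth limits *Marco*, *Stab2*, *Cd5l* and *Olr1*, which had at most 35 counts in M7 and M8.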
